A study of Homo sapiens with 4 samples.

Results

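The collagen-high cells were the 320 cells with the largest share of transcripts from the fibrillar collagen genes COL1A1, COL1A2 and COL3A1, out of 3212 cells kept in 4 single-cell RNA sequencing (scRNA-seq) libraries. A cell barcode was kept with at least 2000 detected genes and under 5% of its unique molecular identifiers (UMIs, the distinct transcript molecules counted) from mitochondrial genes. In each library the top 10% of kept cells by collagen share were taken as collagen-high and the bottom 50% as collagen-low. This gave 76 collagen-high and 382 collagen-low of 765 kept cells for shScr day 3, 58 and 290 of 581 for shAPC day 3, 94 and 471 of 942 for shScr day 7, and 92 and 462 of 924 for shAPC day 7. These 4 libraries come in the same order wherever 4 values are listed below. All cells were HCEC 1CT, a line of human colonic epithelial cells immortalised with TERT and CDK4, grown with EGF, hydrocortisone, insulin, transferrin, selenite and 2% serum and selected with puromycin. The shRNA they carried was directed at APC (shAPC) or had a scrambled sequence (shScr), and they were harvested 3 or 7 days after transduction, 1 library for each shRNA and day and a single shRNA sequence against APC per the methods. Nothing in the labels names a separate culture beyond these libraries.

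Fibrillar collagens are the rope-like proteins that give connective tissue its strength. Type I collagen is built from COL1A1 and COL1A2 chains and type III from COL3A1 chains. Their precursors are hydroxylated and folded in the endoplasmic reticulum, carried out by enlarged COPII vesicles, trimmed outside the cell and joined into crosslinked fibrils by lysyl oxidases. In the intestine the main producers are the fibroblasts under the epithelium, which also secrete the BMP antagonist GREM1, whereas CD248 (endosialin) is a surface glycoprotein of stromal cells and pericytes.

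The mesenchymal gene VIM was abundant in both classes, and several defining epithelial genes were at or near 0, while keratin 7 and a few other epithelial genes were detected. VIM, an intermediate filament of mesenchymal cells, stood at 4993, 4956, 3852 and 3826 counts per 1000000 UMIs (CPM) in the collagen-high cells and 5281, 4671, 3895 and 4008 CPM in the collagen-low cells. The epithelial genes EPCAM and CDH1 had 1 and 0 UMIs among 12055355 in the collagen-high cells, where 3 UMIs would be 0.249 CPM. CDX2, KRT20, MUC2 and GRHL2 were at 0 UMIs in both classes of every library. The kept cells held 27288693 to 38912986 UMIs per library, with medians of 51580 and 57250 UMIs per cell at day 3 and 28780.5 and 28223 at day 7. Each class of each library was summed, which left 2240399 to 3843164 UMIs in the collagen-high sums and 14562947 to 19408690 in the collagen-low sums. The libraries shared 68 barcodes over all pairs, of which 2 were among kept cells and 0 among collagen-high cells.

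APC, the tumour suppressor that holds beta-catenin in check and the target of the shRNA, was lower in both shAPC libraries in both classes. In the collagen-high cells it stood at 21.6, 2.76, 27.7 and 4.02 CPM and in the collagen-low cells at 14.2, 5.40, 18.7 and 6.25 CPM. At day 3 the shAPC level was 12.8% (95% interval 5.64 to 25.4) of the shScr level in collagen-high cells and 38.1% (95% interval 29.8 to 48.3) in collagen-low cells. At day 7 it was 14.5% (95% interval 6.38 to 29.0) and 33.4% (95% interval 26.1 to 42.5). The intervals are exact, cover counting error only and rest on 9 APC UMIs in the collagen-high cells of each shAPC library. They did not overlap between the classes at day 3 and overlapped at day 7. APC was higher in the collagen-high than in the collagen-low cells of both shScr libraries and lower in both shAPC libraries, a split that was noticed only once its values were known. The difference between shRNAs was -1.34 ± 0.36 SE on the log2 scale, with an unadjusted p of 0.00202 and an edgeR adjusted p = 0.494 over all genes tested, so it did not pass.

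The collagens that chose the cells are given as a description, with no test. COL1A1 (chr17:50184101-50201632, minus strand, hg38) stood at 4064, 4721, 2829 and 5396 CPM in the collagen-high cells and 729, 654, 427 and 633 CPM in the collagen-low cells. COL1A2 (chr7:94394895-94431227, plus strand) stood at 1851, 2862, 1772 and 4560.4 against 320.5, 328, 203 and 396 CPM. COL3A1 (chr2:188974373-189012746, plus strand) stood at 122, 226, 117 and 392 against 24.2, 29.2, 15.5 and 27.2 CPM. The ratio of the classes ran from 5.05 for COL3A1 in shScr day 3 to 14.4 for COL3A1 in shAPC day 7. Both shAPC libraries had the higher values of all 3 genes in the collagen-high cells at their day, with COL1A2 at 4560 CPM in shAPC day 7 against 1772 CPM in shScr day 7. COL1A1 supplied 67.3%, 60.5%, 60.0% and 52.1% of the collagen UMIs of the collagen-high cells, and COL3A1 only 2.02% to 3.79%.

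Collagen share formed a continuous range in every library, with no gap at the limit of the top 10%. The least collagen-rich member had 0.423%, 0.527%, 0.291% and 0.706% of its UMIs in the 3 genes, and the richest cell just outside had 0.421%, 0.525%, 0.2909% and 0.702%. Within 10% of that limit lay 34, 22, 36 and 27 cells. The median collagen-high cell had 0.536%, 0.751%, 0.444% and 1.03%, the median collagen-low cell 0.109%, 0.102%, 0.0664% and 0.109%, and the top cell of the series 2.47%. The shScr day 3 limit of 0.423% was then applied to all libraries. In shScr day 3 itself 9.93% of cells passed, a share fixed by the rule. The same limit took 14.5% of shAPC day 3 (11.7 to 17.6), 5.52% of shScr day 7 (4.15 to 7.18) and 20.5% of shAPC day 7 cells (17.9 to 23.2). A larger share of cells thus passed the common limit in shAPC than in shScr at both days, in single libraries with no replicate. At day 3 the shScr share was the one fixed in advance.

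**Figure D1:**
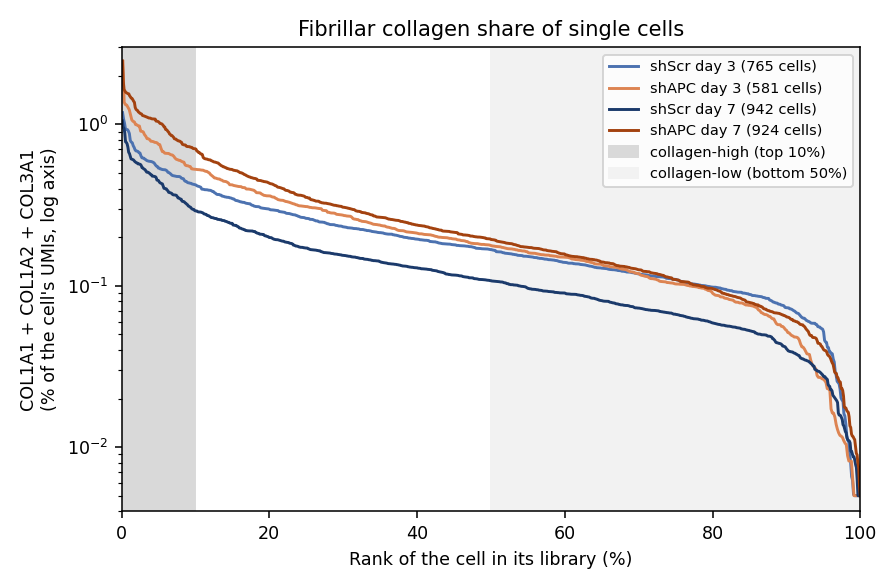
Share of each cell's UMIs from COL1A1, COL1A2 and COL3A1 (log axis) against the rank of the cell within its library in percent, 1 line per library, with the top 10% and the bottom 50% shaded. The lines fall smoothly through both limits, and shAPC day 7 lies highest (0.706% at the limit of the top 10%) and shScr day 7 lowest (0.291%).

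The ranking was much the same in separate parts of each cell's counts. The UMIs of every cell were split at random into 2 equal parts, and the shares from the parts had rank correlations of 0.918, 0.959, 0.858 and 0.944 across cells, which share library and depth. Of the cells in the top 10% by one part, 85.1% to 89.7% were also in the top 10% by the other, and 0 were in its bottom 50%. The ratio of the classes in the part that had not chosen the cells was 4.58 to 11.5 for the 3 genes. Across cells, COL1A1 and COL1A2 had rank correlations of 0.668 to 0.845. Collagen-high cells had a median of 39495 UMIs per cell against 42273 in collagen-low cells (means of the 4 library medians), lower in 3 of 4 libraries (mean difference -2778, SD 3287, n = 4, exact paired permutation p = 0.25, two-sided). Their mitochondrial share was higher in 4 of 4 libraries, by 0.277 percentage points (SD 0.0636, n = 4, exact paired permutation p = 0.13, the smallest that 4 libraries allow). With the classes set within UMI quintiles of each library, 92.7% of the higher and 93.6% of the lower calls given below were made again, while the part of the mitochondrial share in them was not tested.

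Among all other genes the collagen-high cells differed widely from the collagen-low cells. Counts were compared over the 8 sums with edgeR's quasi-likelihood test and the library as a block, so that each library was its own control, and the levels given for single genes from here on are CPM scaled by TMM, edgeR's correction for composition, except where plain CPM are named. Of 12223 genes tested, 1651 (13.5%) were higher and 1745 (14.3%) lower in the collagen-high cells at an adjusted p under 0.05, 27.8% in either direction, with a median log2 difference of 0.0039. The 4 high and the 4 low sums did not overlap for 2016 genes (16.5%), 961 of them higher (7.86%) and 1055 lower (8.63%). Each group of shRNA and day held 1 library, so the p-values measure how alike the 4 libraries were and not the spread of repeat cultures. These shares of all genes are the background for the counts of each gene list below.

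**Figure D2:**
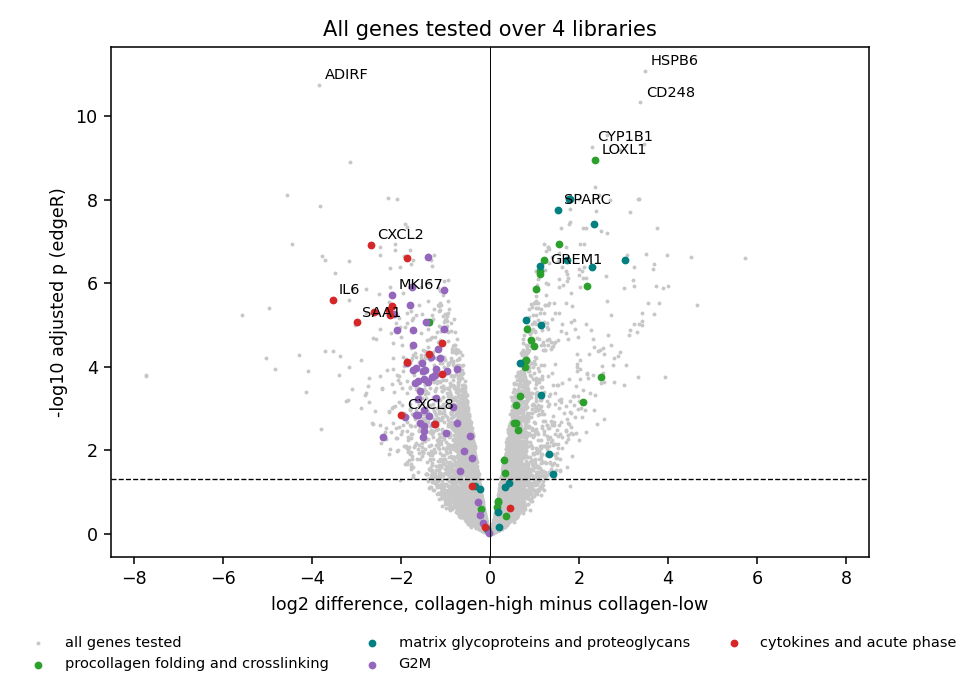
The log2 difference between collagen-high and collagen-low cells (x axis) against the -log10 of edgeR's adjusted p (y axis) for 12223 genes, 1 grey point per gene, with 4 gene lists in colour and the dashed line at an adjusted p of 0.05. Genes of collagen folding and crosslinking and of the matrix lie to the right (22 of 28 and 14 of 21 called higher), and G2M and cytokine genes to the left (50 of 54 and 14 of 17 called lower).

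CD248 and GREM1 were higher in the collagen-high cells. Both were chosen as markers of these cells with earlier results of these data known, so their tests are a description and not separate support. CD248 (chr11:66314494-66317044, minus strand) stood at 163, 255, 99.4 and 294 CPM in the collagen-high cells against 20.0, 18.9, 11.9 and 24.5 CPM in the collagen-low cells. It was thus about 10.4-fold higher, and every collagen-high sum lay above every collagen-low sum (log2 difference 3.37 ± 0.13 SE, edgeR adjusted p = 4.64e-11). GREM1 (chr15:32718004-32745106, plus strand) stood at 885, 707, 1112 and 1200.3 CPM in the collagen-high cells against 445, 339.8, 486 and 379 CPM in the collagen-low cells. All 4 collagen-high sums again lay above all 4 collagen-low sums (log2 difference 1.23 ± 0.11 SE, edgeR adjusted p = 4.77e-07), and the fold was 2.34.

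The 15 genes with the largest rise common to all 4 libraries were chosen by the size of their smallest difference. Their direction is thus part of the choice. HSPB6, a small heat shock protein of muscle, stood at 152, 117, 95.5 and 189 CPM in the collagen-high cells against 11.6, 11.2, 10.0 and 16.4 CPM in the collagen-low cells, 11.1-fold higher (log2 difference 3.47 ± 0.11 SE, edgeR adjusted p = 7.99e-12). GALNT5, which starts mucin-type sugar chains on secreted proteins, stood at 69.1, 49.4, 90.7 and 94.8 against 7.12, 6.65, 5.09 and 8.03 CPM (10.9-fold). CCND2, a D-type cyclin, stood at 69.7, 82.3, 82.4 and 241 against 4.67, 16.4, 8.05 and 16.1 CPM (10.1-fold) and was highest in the collagen-high cells of shAPC day 7. These genes lay at or under 20 CPM in every collagen-low sum. CYP1B1, a cytochrome P450 that oxidises steroids and aromatic compounds, was the most abundant of the 15, at 682, 768, 1084 and 2169 against 151, 179, 244 and 333 CPM (4.87-fold). GPNMB, a transmembrane glycoprotein, stood at 34.8, 25.7, 34.9 and 57.6 against 1.33, 4.80, 1.99 and 2.92 CPM, and its log2 difference of 3.75 became 4.36 without shAPC day 3. CRABP2, which carries retinoic acid in the cell, stood at 5.34, 20.1, 6.34 and 20.5 against 0.612, 0.601, 0.550 and 2.78 CPM and was highest in the collagen-high cells of both shAPC libraries. CD248, described above, was also among the 15. The others were QPRT, an enzyme of NAD synthesis (6.20-fold), LOXL1 (5.16-fold), HSPB2 (8.86-fold), SERPINB2, a plasminogen activator inhibitor (6.21-fold), the metallothionein MT1M (7.58-fold), BAALC, SLC49A3 and the noncoding MIR497HG. HSPB2 overlaps CRYAB on the opposite strand, and any part of this in its counts was not tested. MT1M has near-identical relatives, so its counts are uncertain. For 14 of the 15 the 4 high sums lay above the 4 low sums, and for BAALC the lowest high sum (4.36 CPM, shScr day 7) was just under the highest low sum (4.38 CPM, shAPC day 7). Over all genes tested the share with such a separation was 7.86%, but the choice by smallest difference itself favours separated genes.

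MIR497HG (chr17:7015818-7019659, minus strand) is the host transcript of the microRNAs miR-195 and miR-497, small RNAs that pair with target messages through a seed of 7 bases. The host stood at 15.2, 15.1, 18.2 and 21.4 CPM in the collagen-high cells against 1.61, 2.08, 1.38 and 1.68 CPM in the collagen-low cells, 9.97-fold higher (log2 difference 3.32 ± 0.20 SE, edgeR adjusted p = 9.65e-09). The mature microRNAs lie inside it on the same strand, at chr17:7017667-7017687 and chr17:7017979-7017999 (RefSeq, GRCh38.p14), and were not measured by these libraries. The sequences of their 5p arms are given 5′ to 3′ because these 2 arms carry the same seed, in capitals at bases 2 to 8.
hsa-miR-195-5p: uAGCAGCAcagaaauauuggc
hsa-miR-497-5p: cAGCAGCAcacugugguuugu

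The 15 genes with the largest fall common to all 4 libraries were chosen in the same way. ADIRF, a small protein linked to fat cell differentiation, stood at 10.7, 5.58, 8.32 and 5.11 CPM in the collagen-high cells against 155, 67.5, 137 and 73.4 CPM in the collagen-low cells, 14.3-fold lower (log2 difference -3.84 ± 0.14 SE, edgeR adjusted p = 1.81e-11). CSF3, the cytokine that stimulates granulocytes, stood at 7.58, 5.30, 5.15 and 2.32 against 59.3, 46.7, 41.0 and 35.2 CPM (8.81-fold lower). MAP2, a microtubule protein, stood at 18.8, 7.25, 28.5 and 4.18 against 99.7, 37.2, 105 and 74.7 CPM (5.51-fold lower). All of these were lower in each of the 4 libraries. G0S2, an inhibitor of fat breakdown, stood at 1.69, 10.0, 8.71 and 2.32 against 125, 56.6, 98.1 and 42.4 CPM, with a log2 difference of -3.77 that became -3.14 without shScr day 3 and -4.51 without shAPC day 3. PTTG1, the securin that guards sister chromatid separation, stood at 21.6, 13.4, 27.7 and 15.3 against 79.9, 89.0, 127 and 85.2 CPM (4.90-fold lower). TRIML2 stood at 1.69, 0.836, 2.77 and 0.930 against 49.4, 45.9, 20.7 and 21.8 CPM, and the cation channel gene TRPA1 at 0.843, 0.836, 2.77 and 1.39 against 20.7, 23.6, 14.2 and 9.57 CPM. The rest were the reticulon RTN1, the trypsinogen gene PRSS3, the sulfotransferase SULT1B1, the chemokine CXCL2 and the noncoding RNAs LINC01436, LINC00839, AL513323.1 and AL590705.1. AL513323.1 stood at 43.8, 20.1, 49.9 and 0.930 against 285, 167, 334 and 160.2 CPM and was lowest in the collagen-high cells of shAPC day 7. LINC01436, SULT1B1 and AL590705.1 were at 0 in 1, 2 and 3 of the 4 high sums, and their log2 differences of -4.44, -4.95 and -5.57 became -5.25 without shScr day 7, -5.67 without shAPC day 7 and -8.27 without shScr day 3.

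**Figure D3:**
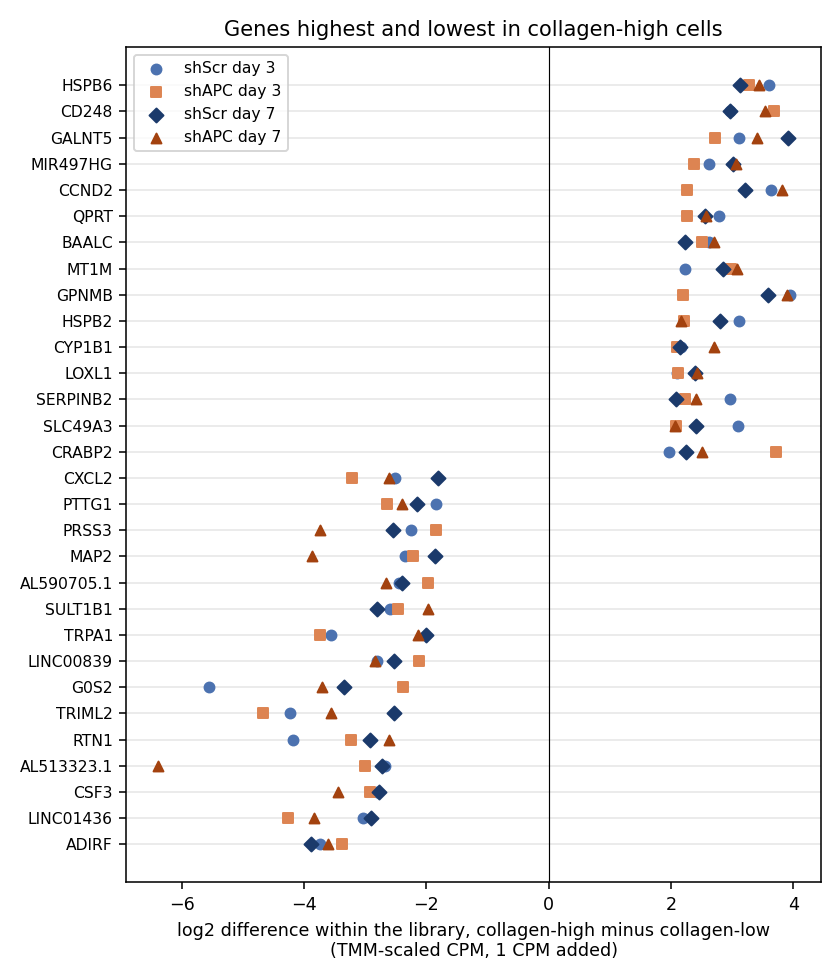
The log2 difference between collagen-high and collagen-low cells within each library (x axis, TMM-scaled CPM with 1 CPM added), 1 marker per library. The genes are the 15 with the largest rise common to all 4 libraries and the 15 with the largest such fall. All 4 markers of each gene lie on one side of 0, between 1.98 for CRABP2 and 3.94 for GPNMB on the right, and between -6.38 for AL513323.1 and -1.81 for CXCL2 on the left.

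Other collagens rose with the 3 of the rule. Of the fibrillar collagens outside the rule, 3 of 4 tested rose, with a median log2 difference of 0.95. COL5A1, a type V chain that sets the width of type I fibrils, stood at 113, 159, 117 and 284 CPM in the collagen-high cells against 34.6, 29.1, 25.2 and 39.7 CPM in the collagen-low cells (log2 difference 2.31 ± 0.14 SE, edgeR adjusted p = 1.01e-08). COL5A2, its partner chain, stood at 122, 108, 111 and 134 against 54.3, 42.7, 48.1 and 46.3 CPM (log2 difference 1.31 ± 0.10 SE, edgeR adjusted p = 1.37e-07). Both were higher in every library with no overlap, and COL5A1 was highest in the collagen-high cells of shAPC day 7. COL27A1 passed at a log2 difference of 0.52 and no longer did without shScr day 3, shAPC day 3 or shScr day 7 (edgeR adjusted p = 0.0789, 0.0806 and 0.119). COL11A1, COL2A1 and COL24A1 had at most 7 UMIs in any collagen-high sum. Of the network-forming and beaded collagens, 8 of 12 tested rose and 1 fell (median 0.54). The beaded collagen VI chains moved together, with log2 differences of 1.33 for COL6A1, 1.27 for COL6A2 and 0.88 for COL6A3. COL4A1, a basement membrane chain, rose by 1.14. COL8A1, a short-chain collagen of vessels and cornea, fell, standing at 130.3, 47.1, 135 and 51.6 against 223, 112, 267 and 144 CPM (log2 difference -1.10 ± 0.12 SE, edgeR adjusted p = 3.31e-06).

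The enzymes that fold, modify and crosslink collagen rose in most cases. Of the 30 genes listed, 22 of 28 tested rose and 1 fell, against 13.5% and 14.3% of all genes, and the median log2 difference was 0.78. SERPINH1 (HSP47), the chaperone that binds the procollagen triple helix, stood at 199, 148, 222 and 233 CPM in the collagen-high cells against 102, 74.8, 87.2 and 100 CPM in the collagen-low cells (log2 difference 1.13 ± 0.10 SE, edgeR adjusted p = 5.20e-07). P4HA1, the catalytic chain of prolyl hydroxylase, stood at 101, 68.3, 98.6 and 102 against 55.2, 32.6, 43.0 and 50.3 CPM (log2 difference 1.04). CREB3L1, the membrane-bound factor that switches on collagen secretion genes, stood at 104, 88.7, 83.2 and 84.6 against 49.1, 35.4, 38.0 and 33.8 CPM (log2 difference 1.21 ± 0.10 SE, edgeR adjusted p = 2.76e-07). Each of these was higher in all 4 libraries. LOX, the enzyme that starts the crosslinks, was the most abundant of the family at 964, 513, 1148 and 540.2 against 455, 244, 412 and 292 CPM (log2 difference 1.13 ± 0.10 SE, edgeR adjusted p = 5.89e-07). LOXL2 stood at 183, 190.2, 142 and 168 against 85.8, 65.1, 42.2 and 48.3 CPM (log2 difference 1.54 ± 0.12 SE, edgeR adjusted p = 1.12e-07) and LOXL1 at 53.6, 33.5, 42.8 and 59.0 against 11.8, 6.98, 7.36 and 10.2 CPM (log2 difference 2.37 ± 0.12 SE, edgeR adjusted p = 1.13e-09). LOXL4, at 11.2, 7.25, 15.1 and 12.1 against 2.28, 2.13, 3.23 and 2.19 CPM, had a log2 difference of 2.18. For LOX, LOXL1, LOXL2 and LOXL4 the 4 high sums lay above the 4 low sums. TGM2, a transglutaminase that links matrix proteins in another way, was the member that fell, at 19.7, 9.20, 26.9 and 5.11 against 55.2, 18.3, 59.3 and 25.8 CPM (log2 difference -1.38).

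Noncollagenous matrix genes rose as well. Of the matrix glycoproteins and proteoglycans, 14 of 21 tested rose and 0 fell (median 1.14), and without shAPC day 3 1 was called lower. SPARC, a collagen-binding glycoprotein, stood at 1311, 758, 1495 and 1304 CPM in the collagen-high cells against 565, 252, 509.9 and 387 CPM in the collagen-low cells (log2 difference 1.53 ± 0.099 SE, edgeR adjusted p = 1.74e-08). SPON2, a secreted matrix protein, stood at 259.8, 246, 226 and 285 against 80.4, 86.3, 66.6 and 66.2 CPM (log2 difference 1.76 ± 0.11 SE, edgeR adjusted p = 9.65e-09), and MXRA8, a surface protein of matrix-producing cells, at 119, 168, 106 and 137 against 41.5, 41.9, 33.3 and 33.7 CPM (log2 difference 1.80 ± 0.11 SE, edgeR adjusted p = 9.65e-09). SPARC, SPON2 and MXRA8 were higher in the collagen-high cells of each library, with no overlap. The small proteoglycan BGN, which decorates fibrils, had a log2 difference of 2.33 and its relative LUM one of 1.74. THBS2, which regulates fibril assembly, stood at 8.15, 7.25, 9.90 and 14.9 against 1.28, 0.785, 1.38 and 1.31 CPM (log2 difference 3.04 ± 0.25 SE, edgeR adjusted p = 2.76e-07). FN1, the fibronectin on which collagen is laid, was abundant in both classes and stood at 4851, 4097, 4836 and 3613 against 3625, 2173, 2768 and 2500.5 CPM (log2 difference 0.67). The classes overlapped across libraries for FN1, and its level was higher in the collagen-high cells of each.

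Elastic fibre genes were split between members that rose and members that fell. Of these, 11 of 15 tested rose and 3 fell (median 0.56). MFAP4, a microfibril-associated protein, stood at 12.9, 15.9, 15.4 and 60.9 CPM in the collagen-high cells against 2.67, 2.96, 3.85 and 7.67 CPM in the collagen-low cells (log2 difference 2.49 ± 0.18 SE, edgeR adjusted p = 5.71e-08), and FBN1, the main microfibril chain, at 140.4, 136, 159 and 150.1 against 69.8, 47.0, 71.7 and 60.9 CPM (log2 difference 1.25 ± 0.11 SE, edgeR adjusted p = 3.01e-07). MFAP5, MFAP2 and LTBP2 had log2 differences of 2.60, 2.33 and 1.08. FBN2, the fibrillin of developing tissue, fell by 0.57 on the log2 scale while FBN1 rose, and FBLN5, which attaches elastin to microfibrils, fell by 0.58. Of the matrix proteases and their inhibitors, 7 of 11 tested rose and 3 fell (median 0.80). MMP2 (gelatinase A) stood at 78.6, 63.6, 70.1 and 174 CPM in the collagen-high cells against 17.6, 15.7, 13.8 and 23.9 CPM in the collagen-low cells (log2 difference 2.35 ± 0.13 SE, edgeR adjusted p = 4.83e-09), and MMP14, the membrane protease that activates it, at 107, 108, 73.7 and 119 against 67.1, 50.1, 34.0 and 36.0 CPM (log2 difference 1.14 ± 0.13 SE, edgeR adjusted p = 9.78e-06). TIMP3, an inhibitor bound to the matrix, stood at 14.0, 13.7, 10.7 and 6.97 against 0.334, 1.34, 0.206 and 0.0730 CPM, with a log2 difference of 4.51 that became 5.58 without shAPC day 3. PLAU (urokinase) went the other way at 3.09, 9.20, 7.53 and 3.25 against 26.4, 105, 15.6 and 17.9 CPM (log2 difference -2.78, -2.16 without shAPC day 3). The summed level of this protease list was 1956, 2304, 2743 and 1862 plain CPM in the collagen-high cells against 3105, 3324, 2661 and 2484 in the collagen-low cells. It was lower in the collagen-high cells of 3 libraries and slightly higher in those of shScr day 7, while more of its members rose than fell.

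Genes commonly used to mark fibroblasts did not move as one. Of the surface markers and factors listed, 10 of 22 tested rose and 2 fell (median 0.28). DDR2, a receptor for fibrillar collagen, stood at 118, 82.0, 126 and 147 CPM in the collagen-high cells against 61.0, 52.8, 60.5 and 55.1 CPM in the collagen-low cells (log2 difference 1.01 ± 0.12 SE, edgeR adjusted p = 8.95e-06). S100A4, a calcium-binding protein, stood at 91.6, 109, 131 and 55.8 against 25.6, 19.7, 28.0 and 38.4 CPM (log2 difference 1.81 ± 0.21 SE, edgeR adjusted p = 8.48e-06), and the factor PRRX1 at 11.5, 7.53, 10.3 and 6.51 against 2.73, 2.40, 3.99 and 1.61 CPM (log2 difference 1.76 ± 0.22 SE, edgeR adjusted p = 2.15e-05). PDGFRB, a growth factor receptor, had a log2 difference of 0.96. PDPN (podoplanin), in contrast, stood at 7.86, 6.41, 11.1 and 14.4 against 37.1, 33.0, 34.8 and 41.0 CPM (log2 difference -1.94 ± 0.16 SE, edgeR adjusted p = 2.24e-07), below the collagen-low cells in all 4 libraries, and the factor TWIST1 had a log2 difference of -0.63. VIM did not pass (log2 difference 0.03 ± 0.089 SE, edgeR adjusted p = 0.837).

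Of the contractile genes, 7 of 11 tested rose and 1 fell (median 0.43), and the fall was lost without shScr day 3 or without shAPC day 7. TAGLN, an actin-bundling protein of smooth muscle, stood at 444, 328, 444 and 503 CPM in the collagen-high cells against 196, 134, 214 and 205 CPM in the collagen-low cells (log2 difference 1.20 ± 0.091 SE, edgeR adjusted p = 1.12e-07), and MYL9, a myosin light chain, at 647, 504, 497 and 492 against 316, 212, 254 and 261 CPM (log2 difference 1.04 ± 0.092 SE, edgeR adjusted p = 5.02e-07). ACTA2, the actin of myofibroblasts, stood at 47.5, 58.8, 36.4 and 65.5 against 43.5, 65.6, 37.9 and 43.0 CPM and did not pass (log2 difference 0.13 ± 0.13 SE, edgeR adjusted p = 0.494). The insulin-like growth factor binding proteins IGFBP4, IGFBP3 and IGFBP6 rose (3 of 5 tested), with log2 differences of 1.03, 0.87 and 0.41. In the TGF-beta pathway 4 of 16 tested rose and 1 fell, against 13.5% and 14.3% of all genes. Those that rose included the activin subunit INHBA (log2 difference 0.88) and the inhibitory SMAD7 (0.83), while SMAD6 (1.29) and TGFBR3 (0.57) lost their call without shAPC day 7 (edgeR adjusted p = 0.055 and 0.258) and TGFBR3 also without shAPC day 3 (0.104). TGFB1 (-0.32) lost it without any one library. Among BMP antagonists and ID genes 3 of 9 tested rose and 0 fell. They were FSTL1, a secreted follistatin-like protein (319, 436, 369.6 and 613 against 214, 205, 195 and 233 CPM, log2 difference 1.00), the BMP inhibitor NOG (5.90, 4.46, 6.34 and 17.7 against 2.22, 1.29, 2.34 and 2.19 CPM, 1.96) and ID2 (0.62).

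Keratin 7 and keratin 19 rose in the collagen-high cells. Of the 18 epithelial genes listed, 7 were tested, 4 rose and 1 fell, and 8 to 11 of the 18 were at 0 UMIs in each collagen-high sum. KRT7 stood at 117, 147, 126 and 155 CPM in the collagen-high cells against 28.4, 55.0, 48.9 and 58.7 CPM in the collagen-low cells (log2 difference 1.55 ± 0.12 SE, edgeR adjusted p = 1.12e-07), and KRT19 at 5.34, 15.6, 8.71 and 14.4 against 2.95, 2.73, 0.825 and 1.31 CPM (log2 difference 2.43 ± 0.33 SE, edgeR adjusted p = 4.24e-05). KRT18, with a log2 difference of 0.81, lost its call without shScr day 3 or shScr day 7 (edgeR adjusted p = 0.0846 and 0.15), as did CLDN1 (-1.53) without shAPC day 3 or shScr day 7 (0.0746 and 0.145). KRT18 and KRT19 have near-identical pseudogenes, so their counts are uncertain. The claudin CLDN7 (17.4, 23.4, 20.2 and 6.51 against 6.67, 11.6, 5.57 and 6.57 CPM, 1.16) rose in 3 of 4 libraries and was level in shAPC day 7. The summed level of this list was 196 to 264 plain CPM in collagen-high and 89.6 to 154 in collagen-low cells. Markers of other cell types were at or near 0. The 5 endothelial genes were at 0 UMIs in the collagen-high cells of every library, PTPRC and CD3E of the immune list and SOX10, S100B and ELAVL4 of the neural list were at 0 in both classes, and the immune list summed to 19.6 to 35.5 plain CPM, most of it CD68. Of the pericyte and smooth muscle genes 1 of 4 tested rose. This was the receptor NOTCH3, at 28.4, 34.9, 36.4 and 52.5 against 13.9, 9.10, 8.73 and 13.4 CPM (log2 difference 1.74 ± 0.16 SE, edgeR adjusted p = 6.11e-07), while DES and MYH11 had at most 2 UMIs in any collagen-high sum. MCAM had 0 UMIs in every collagen-high sum and 8 to 12 in the collagen-low sums.

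Cytokine and acute phase genes fell in the collagen-high cells. Of the 20 genes listed, 14 of 17 tested fell and 0 rose, against 14.3% and 13.5% of all genes, and the median log2 difference was -1.86. CXCL1, a chemokine that draws neutrophils, stood at 65.4, 44.6, 235 and 47.0 CPM in the collagen-high cells against 338, 339, 424 and 394 CPM in the collagen-low cells (log2 difference -2.25). CXCL3 and CXCL6, of the same gene cluster on chromosome 4, stood at 27.5, 13.9, 40.0 and 6.51 against 90.7, 107, 102 and 87.1 CPM and 13.5, 1.39, 24.2 and 7.90 against 66.4, 28.1, 57.1 and 56.8 CPM. All 3 were lower in the collagen-high cells of every library, least so for CXCL1 in shScr day 7. CXCL1, CXCL2 and CXCL3 are close copies of each other, so their counts are uncertain. IL6, the fever and acute phase cytokine, stood at 0.843, 0.836, 0.792 and 0 against 4.89, 14.0, 8.46 and 2.85 CPM (log2 difference -3.54 ± 0.36 SE, edgeR adjusted p = 2.53e-06). TNFAIP3 (A20), the feedback inhibitor of NF-kB, stood at 15.4, 43.5, 43.2 and 17.2 against 66.1, 199.8, 95.7 and 70.8 CPM (log2 difference -1.86 ± 0.15 SE, edgeR adjusted p = 2.42e-07). SAA1, an acute phase protein with a near-identical neighbour, SAA2, stood at 10.7, 2.51, 175 and 5.11 against 172, 52.8, 469 and 130.2 CPM (log2 difference -3.00). Its collagen-high level was far higher in shScr day 7 than in the other libraries, yet below the collagen-low level there too.

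The promoters of CXCL8 and CXCL1 are shown because both hold the letters of an NF-kB site and both genes belong to the cytokine list, of which most members fell. The motif GGAATTTCC, searched on both strands, stood in the 250 bases before the start of 7 of 15 genes of the cytokine list that matched a RefSeq promoter (46.7%) and of 0.428% of all 27305 promoters. These were CXCL1, CXCL2, CXCL3, CXCL5, CXCL6, CXCL8 and NFKBIA. The CXCL genes among them lie in one cluster on chromosome 4, so their matches may not be independent of each other. A match is a description of the letters and says nothing of binding. The stretches lie upstream of the transcripts at chr4:73740319-73740568 and chr4:73869143-73869392, both on the plus strand of chromosome 4 in GRCh38.p14, with the motif in capitals.
CXCL8: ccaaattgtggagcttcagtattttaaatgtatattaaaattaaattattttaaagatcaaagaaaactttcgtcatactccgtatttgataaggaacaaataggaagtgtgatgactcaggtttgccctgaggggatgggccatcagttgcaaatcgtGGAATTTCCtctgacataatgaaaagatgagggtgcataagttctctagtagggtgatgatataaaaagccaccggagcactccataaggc
CXCL1: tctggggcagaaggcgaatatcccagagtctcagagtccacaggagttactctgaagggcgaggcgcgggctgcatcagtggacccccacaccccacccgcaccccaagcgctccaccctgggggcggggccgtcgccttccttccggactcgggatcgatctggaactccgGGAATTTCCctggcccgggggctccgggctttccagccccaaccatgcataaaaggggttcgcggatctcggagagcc

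Interferon-stimulated genes mostly rose. Of the list, 9 of 14 tested rose and 2 fell (median 0.54). IFI27, an interferon-induced mitochondrial protein, stood at 440.1, 1310.5, 582 and 248 CPM in the collagen-high cells against 85.6, 680.5, 183 and 62.4 CPM in the collagen-low cells (log2 difference 1.73 ± 0.16 SE, edgeR adjusted p = 9.07e-07). IFI44L stood at 61.2, 142, 43.2 and 53.9 against 30.1, 78.9, 19.1 and 20.8 CPM (log2 difference 1.08 ± 0.11 SE, edgeR adjusted p = 3.05e-06) and IFIT2, which inhibits translation of foreign RNA, at 53.1, 137, 21.0 and 19.1 against 14.6, 81.4, 14.9 and 7.60 CPM (log2 difference 1.10 ± 0.18 SE, edgeR adjusted p = 2.02e-04). For each of these genes shAPC day 3 was high in both classes, so the sums overlapped between classes across libraries while the difference within each library had one sign. Those that fell were IRF1, the factor induced by interferon gamma and NF-kB (7.58, 15.9, 7.13 and 7.90 against 12.1, 66.8, 23.7 and 12.8 CPM, log2 difference -1.47), and the chemokine CXCL10 (0, 0.558, 2.38 and 0.465 against 4.17, 42.3, 2.20 and 1.17 CPM), which was lower in 3 of 4 libraries. CXCL10 lost its call without shAPC day 3, where its log2 difference went from -4.08 to -1.61 (edgeR adjusted p = 0.122).

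Fewer of the collagen-high cells were in S or G2M phase. Cells were thinned to 5000 UMIs each, which left out 1 collagen-high cell of shAPC day 3, and given a phase from the S and G2M lists of Seurat. The share in S or G2M was 11.8%, 10.5%, 14.9% and 14.1% in the collagen-high cells and 34.0%, 32.4%, 40.1% and 33.5% in the collagen-low cells. The exact binomial 95% intervals of the collagen-high shares ran from 3.96 to 23.7% over the libraries and those of the collagen-low shares from 27.1 to 44.7%. The collagen-high share was lower in 4 of 4 libraries, by a mean of 22.2 percentage points (SD 2.38, n = 4, exact paired permutation p = 0.13, two-sided, the smallest that 4 libraries allow). Unthinned cells gave -22.1 points. The difference was -10.2 points (SD 2.98) for S phase and -12.0 points (SD 3.10) for G2M. Free RNA in the droplets also enters phase calls, and its part was not tested.

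At the level of genes, 50 of 54 G2M genes tested fell and 0 rose (median -1.45), and 28 of 41 S phase genes fell and 0 rose (median -1.06). MKI67, the proliferation marker Ki-67, stood at 3.93, 4.46, 17.8 and 6.04 CPM in the collagen-high cells against 28.8, 30.9, 40.9 and 35.9 CPM in the collagen-low cells (log2 difference -2.19 ± 0.22 SE, edgeR adjusted p = 1.89e-06). BIRC5 (survivin), which works at the centromere, stood at 19.1, 10.3, 29.7 and 14.9 against 53.7, 62.5, 70.3 and 54.4 CPM, and CKS2, a subunit of cyclin-dependent kinases, at 51.7, 45.4, 83.6 and 31.1 against 134, 117, 183 and 108 CPM. The nucleotide synthesis genes RRM2 and TYMS stood at 10.7, 5.86, 24.2 and 13.0 against 54.2, 39.2, 61.4 and 48.9 CPM and 20.2, 10.6, 23.8 and 18.1 against 67.3, 51.4, 58.0 and 56.4 CPM. All 5 were lower in each library with no overlap between the classes. With only cells called G1 and the classes set again, 8 of 35 G2M and 4 of 29 S phase genes tested fell. Cells were called G1 from these same lists, so a smaller count was set in advance and decides nothing. Over all 11453 genes tested with G1 cells only, 1087 rose and 1041 fell. In that setting 19 of 27 folding and crosslinking genes and 13 of 20 matrix glycoproteins still rose, and 16 of 17 cytokine genes fell.

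The promoters of CDC20 and TOP2A stand for the G2M genes. CDC20, the activator of the anaphase promoting complex, stood at 6.74, 2.51, 17.8 and 6.51 against 30.5, 37.2, 41.9 and 20.9 CPM (log2 difference -2.09), and TOP2A, the topoisomerase that untangles chromosomes, at 17.1, 33.7, 42.4 and 27.4 against 155, 128, 63.3 and 64.6 CPM (log2 difference -1.73). TTTGAA, the letters of the cell cycle homology region, stood in the 250 bases before the start of 24 of 45 G2M genes matched (53.3%) and of 13.6% of all promoters. CCAAT stood in 31 of 45 (68.9%) and in 33.0% of all, and in 22 of 33 S phase genes matched (66.7%). Both were searched on both strands, so TTCAAA and ATTGG count as matches. The stretches lie before the start at chr1:43358731-43358980 (plus strand) and chr17:40417897-40418146 (minus strand, printed in the direction of the gene), with matches in capitals.
CDC20: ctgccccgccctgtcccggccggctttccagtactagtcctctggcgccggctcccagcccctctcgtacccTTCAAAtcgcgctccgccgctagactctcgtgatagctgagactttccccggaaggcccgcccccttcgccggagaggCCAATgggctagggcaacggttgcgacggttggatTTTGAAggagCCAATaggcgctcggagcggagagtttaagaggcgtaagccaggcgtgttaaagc
TOP2A: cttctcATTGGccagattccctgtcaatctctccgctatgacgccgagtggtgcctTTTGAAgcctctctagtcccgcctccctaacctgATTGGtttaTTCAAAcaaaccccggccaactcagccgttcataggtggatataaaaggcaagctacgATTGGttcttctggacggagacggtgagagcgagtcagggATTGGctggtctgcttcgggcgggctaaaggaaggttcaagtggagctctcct

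Cell cycle arrest genes showed no common direction. Of the list, 3 of 15 tested rose and 3 fell (median -0.034), and 1 rose without shAPC day 7 and 1 fell without shScr day 7. CDKN1B (p27), an inhibitor of cyclin-dependent kinases, stood at 5.34, 12.8, 9.11 and 17.7 CPM in the collagen-high cells against 3.61, 6.65, 5.50 and 8.69 CPM in the collagen-low cells (log2 difference 0.85 ± 0.17 SE, edgeR adjusted p = 0.00179). The p53 target TP53INP1 stood at 14.9, 25.1, 14.3 and 68.3 against 11.7, 15.8, 12.9 and 23.0 CPM and lost its call without shAPC day 7 (edgeR adjusted p = 0.0563). PLK2 fell (log2 difference -0.67), while CDKN2A (p16, -0.32) lost its call without either day 7 library and GADD45A (-0.73) without shAPC day 3 or shScr day 7. GADD45A was higher in the collagen-high cells of shScr day 3 (104 against 73.5 CPM) and lower in those of the other 3 libraries. General chaperones of the endoplasmic reticulum were divided too, with 6 of 19 tested higher and 3 lower (median 0.20). HERPUD1, of protein disposal from the endoplasmic reticulum, stood at 53.1, 69.4, 60.2 and 93.9 against 27.9, 42.4, 40.5 and 49.8 CPM (log2 difference 0.78 ± 0.11 SE, edgeR adjusted p = 4.38e-05), while the calnexin gene CANX stood at 206, 98.7, 204 and 93.0 against 262, 152, 214 and 171 CPM (log2 difference -0.47 ± 0.12 SE, edgeR adjusted p = 0.00683). Without shScr day 7 the number higher was 3. Of the vesicle transport genes 10 of 23 tested rose and 2 fell (median 0.24). The COPII coat genes SEC24D and SEC23A rose, at 75.6, 62.5, 85.6 and 81.8 against 53.6, 35.9, 40.2 and 45.5 CPM and 95.8, 99.5, 111 and 149.7 against 73.5, 60.8, 68.6 and 78.2 CPM, whereas SAR1B, the GTPase that starts the coat, stood at 24.7, 30.1, 23.4 and 30.7 against 38.6, 48.4, 42.8 and 47.7 CPM (log2 difference -0.70 ± 0.11 SE, edgeR adjusted p = 2.13e-04).

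Along the whole range of collagen share, gene lists followed different courses. The cells of each library were divided into 10 equal groups by collagen share and the plain CPM of each list were summed. The folding and crosslinking list went from 1697, 1834, 1791 and 1233 CPM in the lowest group to 2672, 2455, 1949 and 2109 in the fifth and 3355, 3091, 3329 and 2757 in the highest. The matrix glycoprotein list went from 4219, 3987, 4368 and 3075 to 6627, 6390.4, 4977 and 5550.2 and 8234, 9838, 8195 and 7859. Both rose over the whole range and not at the top alone, although in shAPC day 7 the highest group lay slightly below the ninth for the folding list. The G2M list took another course, at 1723, 1706, 1874 and 821 CPM in the ninth group and 634, 744, 1049.7 and 691 in the highest. In shAPC day 7 it went from 1606 CPM in the second group down to the value in the highest, whereas in the other libraries it stayed above 1000 CPM in each of the first 9 groups and was lowest in the highest group. The cytokine list went from 1549, 3499, 2853 and 1605 CPM in the lowest group to 1686, 987, 1438 and 1276 in the fifth and 588, 374, 1199 and 221 in the highest. The interferon list was high at both ends in shAPC day 3 and shScr day 7. In shAPC day 3 it stood at 7087 CPM in the lowest group, 3005 in the fourth and 4587 in the highest. In shScr day 7 it stood at 1369 CPM in the lowest, 625 in the third and 1312 in the highest. In shScr day 3 and shAPC day 7 it went from 624 and 479 CPM in the lowest group to 1317 and 836 in the highest.

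**Figure D4:**
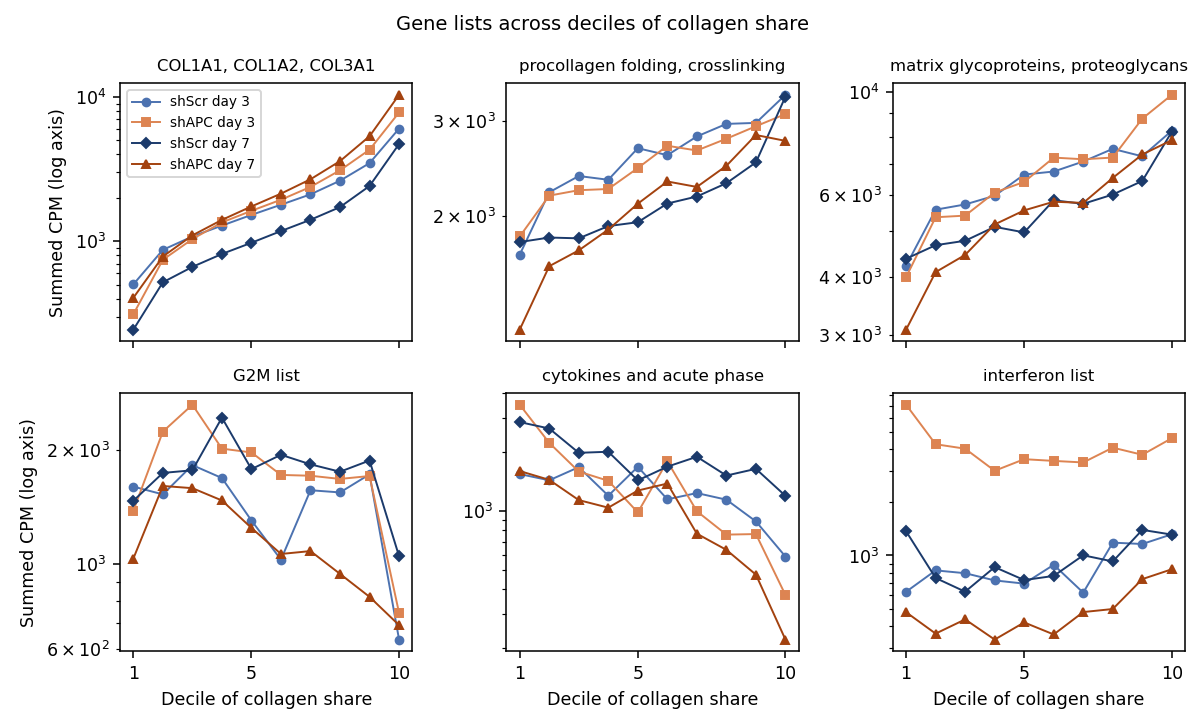
Summed CPM (log axis) of the 3 collagens of the rule and of 5 gene lists in 10 equal groups of cells ordered by collagen share (x axis, decile 1 lowest), 1 line per library. The matrix lists climb over the range, the G2M list of shScr day 3 drops from 1723 CPM in decile 9 to 634 in decile 10, and the cytokine list declines to 221 to 1199 CPM in decile 10.

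The contrast between collagen-high and collagen-low cells differed between shRNAs for 5 of 12223 genes (0.0409%), with the days standing as repeats of each shRNA. CXCL8 (interleukin 8) stood at 124, 16.2, 188 and 21.4 plain CPM in the collagen-high cells against 206, 338, 331 and 231 in the collagen-low cells. Its log2 differences were -0.74, -4.11, -0.76 and -3.40, so that it was lower in every library and by far more in shAPC (difference of the log2 values -3.10 ± 0.24 SE, edgeR adjusted p = 8.87e-06). The collagen-low levels of the 4 libraries overlapped between shRNAs, whereas the collagen-high levels did not. CXCL5 had log2 differences of -1.27, -3.46, -1.14 and -3.18 (difference of the log2 values -2.48 ± 0.31 SE, edgeR adjusted p = 0.00414). VCAM1, an adhesion molecule for leukocytes, had -0.56, -2.88, -0.72 and -2.33 (difference of the log2 values -2.40 ± 0.38 SE, edgeR adjusted p = 0.0408), and its contrast over all libraries of -1.52 became -2.24 without shScr day 3. The same sign was seen for CXCL3 (difference of the log2 values -1.67 ± 0.28 SE, edgeR adjusted p = 0.0458) and for DRAM1, a p53 target of autophagy (difference of the log2 values -1.41 ± 0.24 SE, edgeR adjusted p = 0.0458). All 5 were lower in the collagen-high cells of all 4 libraries and more so in both shAPC libraries. With classes set within UMI quintiles, CXCL3 no longer passed (difference of the log2 values -0.63, edgeR adjusted p = 0.437) and the CXCL8 value was -1.99. By DESeq2, VCAM1 and DRAM1 did not pass (adjusted p = 0.166 and 0.154), and with relative log expression size factors VCAM1, CXCL3 and DRAM1 missed the threshold in edgeR (adjusted p = 0.0527, 0.0562 and 0.0562). The shScr matrices were written by Cell Ranger 3.0.2 and the shAPC matrices by 3.0.0 per the file headers. Software version and shRNA thus cannot be told apart. The collagen-high cells also began at higher collagen shares in shAPC, at 0.527% and 0.706% of UMIs against 0.423% and 0.291% in shScr. The part of this in the differences was not tested.

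Between days the contrast differed for 1 of 12223 genes (0.00818%). CRYAB, a small heat shock protein of lens and muscle, stood at 106, 68.3, 151 and 73.9 CPM in the collagen-high cells against 33.3, 17.0, 128 and 64.1 CPM in the collagen-low cells. It was higher in the collagen-high cells at day 3 and nearly level with the collagen-low cells at day 7, in both shRNAs (difference of the log2 values -1.61 ± 0.21 SE, edgeR adjusted p = 0.0175). CRYAB lies on the strand opposite HSPB2 at the same locus. The next genes by p were CXCL10, CCNB1, UBE2C and TOP2A, which did not pass (edgeR adjusted p = 0.151, 0.234, 0.234 and 0.609). The mitotic cyclin CCNB1, for one, had log2 differences of -2.44, -2.27, -0.86 and -0.90.

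Of the Wnt target genes, 2 of 8 tested rose (AXIN2 and TNFRSF19) and 2 fell (DKK1 and BAMBI) in the collagen-high cells. AXIN2, the feedback gene most used as a readout of beta-catenin, had 0 UMIs in collagen-high and 7 in collagen-low cells of shScr day 3, 11 and 24 in shAPC day 3, 1 and 2 in shScr day 7, and 38 and 37 in shAPC day 7. In shAPC day 7 this was 17.0 plain CPM (95% Poisson interval 12.0 to 23.3) against 2.54 (1.79 to 3.50). The contrast over all 4 libraries passed (log2 difference 1.92 ± 0.44 SE, edgeR adjusted p = 0.00386) and rests on the shAPC libraries, since without either of them AXIN2 had too few UMIs to be tested. The difference of its contrast between shRNAs did not pass (edgeR adjusted p = 0.737). NOG stood at 5.46, 4.90, 5.91 and 17.0 plain CPM against 2.06, 1.61, 2.26 and 2.06. Its collagen-high level in shAPC day 7 lay above the other 3, whose intervals overlapped. TNFRSF19 (TROY) rose in each library on few UMIs (1.69, 4.46, 1.58 and 4.18 against 0.111, 0.739, 0.275 and 0.584 CPM, log2 difference 2.79 ± 0.39 SE, edgeR adjusted p = 6.17e-05). The Wnt antagonist DKK1 stood at 96.9, 48.5, 159.6 and 39.5 against 112, 74.7, 198 and 145 CPM (log2 difference -0.69 ± 0.18 SE, edgeR adjusted p = 0.0103), and MYC did not pass (log2 difference -0.32 ± 0.12 SE, edgeR adjusted p = 0.0565). LGR5, RNF43, SP5 and NOTUM had 0 UMIs in every collagen-high sum.

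**Figure D5:**
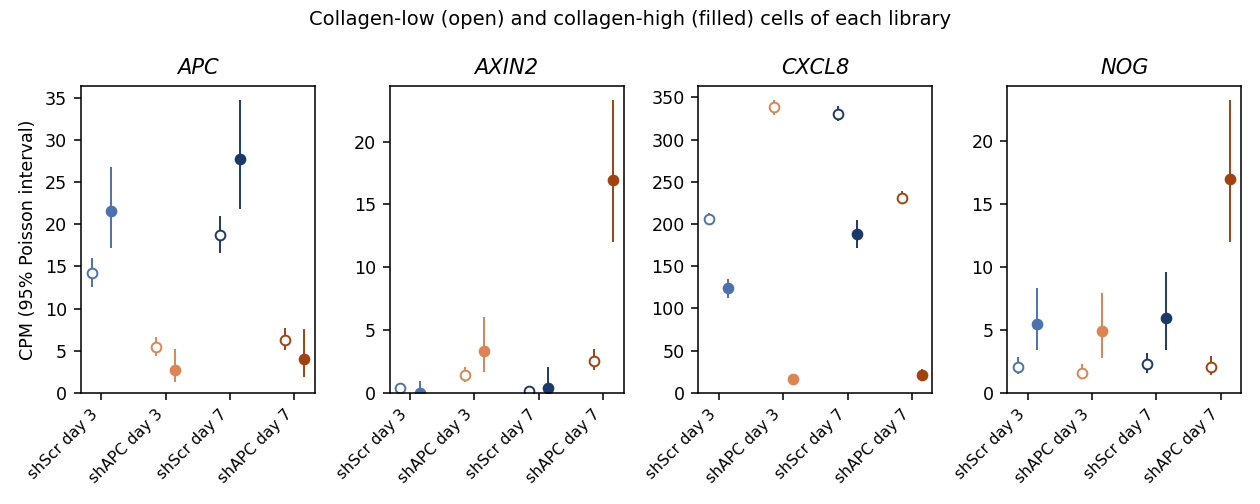
CPM of APC, AXIN2, CXCL8 and NOG in the collagen-low (open) and collagen-high (filled) cells of each library, with exact 95% Poisson intervals for counting error. The y axes differ. APC is higher in collagen-high cells of shScr and lower in those of shAPC, CXCL8 falls to 16.2 and 21.4 CPM in the shAPC collagen-high cells, and AXIN2 and NOG reach 17.0 CPM in shAPC day 7.

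Between libraries only sizes can be given, since each group held 1 library. Among genes with at least 20 plain CPM in one of the sums compared, the collagen-high cells of shAPC day 7 differed at least 2-fold from those of shScr day 7 for 198 genes higher and 279 lower of 4830 (4.1% and 5.78%). In the collagen-low cells of the same libraries it was 15 higher and 51 lower of 4527 (0.331% and 1.13%). The collagen-high sums are shallower, so all sums were also thinned to 2240399 UMIs, a step chosen after seeing the data. The shares in either direction were then 9.85% in collagen-high and 2.62% in collagen-low cells. At day 3 shAPC differed from shScr for 247 genes higher and 58 lower of 5049 in collagen-high cells (4.89% and 1.15%) and for 415 higher and 15 lower of 5323 in collagen-low cells (7.8% and 0.282%), or 7.26% and 10.9% in either direction on the thinned counts. By these counts the shAPC difference spanned more genes in collagen-low cells at day 3 and in collagen-high cells at day 7. With at least 100 CPM on the thinned counts, the day 3 shares lay close, at 5.02% in collagen-high and 5.85% in collagen-low cells. At day 7 they were 8.87% and 2.05%. The collagen-high sums also hold fewer cells, and the part of cell number in these shares was not tested. The plain CPM were not centred between libraries. At day 3 the median log2 ratio of shAPC to shScr before thinning was 0.351 in collagen-low and 0.203 in collagen-high cells. At day 7 it was -0.0987 and 0.00122. The part of this shift in the counts was not tested. From day 3 to day 7 the collagen-high cells changed at least 2-fold for 27 genes higher and 58 lower in shScr (0.589% and 1.27% of 4581) and for 61 higher and 382 lower in shAPC (1.19% and 7.45% of 5128). In collagen-low cells the shares were 0.482% and 0.921% of 4562 in shScr and 0.113% and 8.96% of 5314 in shAPC. Collagen-high cells of the 4 libraries also sat at different collagen shares, as given above, so these sizes compare the top 10% of each library and not cells of equal collagen content.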

How the data were processed

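UMI counts per gene and cell were measured by 10x Genomics 3′ scRNA-seq in 4 libraries, 1 for each shRNA and day. The matrices were deposited by the authors as raw counts from Cell Ranger (3.0.2 in the submitters' processing notes, 3.0.2 for shScr and 3.0.0 for shAPC per the file headers), aligned with STAR to GRCh38, for 33538 genes. The labels name a v2 kit and a retrovirus, where the methods name a V3 kit and a lentivirus.

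The members and gene lists were chosen with earlier results of these data known. Cells were kept and classed as given above, and UMIs were summed per library and class. The 8 sums were compared with edgeR 4.0.16 (R 4.3.3) after filterByExpr, with TMM, library as a block, and Benjamini-Hochberg adjustment at 0.05 over all genes. The 3 collagens of the rule were left out of the table. Class by shRNA and class by day terms were fitted likewise. On simulated counts for 12019 genes of the collagen-high against collagen-low comparison, 78% of genes changed by 1 and 94% of those changed by 2 on the log2 scale were called, with 11 of 11826 unchanged genes called. Only 100 genes were changed at each size, far fewer than were called in the data, so these rates need not hold there. Phases were scored with scanpy 1.11.5 and the lists of Seurat 5.3.0 (43 S and 54 G2M genes). DESeq2 1.42.0 was an alternative. Intervals are exact at 95% and cover counting error only. No doublet caller was run, and an alternative left out the 5% of cells with the most UMIs.

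Genes were named by rule: the 15 highest and 15 lowest by their smallest difference over the libraries among called genes of one direction with at least 200 UMIs over the 8 sums, up to 5 called genes of each list by adjusted p, and up to 5 of each difference of contrasts. APC, ACTA2, CD68, CDC20, CXCL1, FBLN5, FBN2, FN1, LOXL4, LUM, MYC, NFKBIA, P4HA1, SAA1, TGM2, TWIST1 and VIM were named after their values were seen, as were the genes listed at 0 or a few UMIs. Gene coordinates are hg38 and promoters and microRNAs are RefSeq sequences of GRCh38.p14, matched by symbol. COL1A1, COL1A2, COL3A1 and CD248 had no entry in the promoter table used.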

Additional observations from a re-analysis of the deposited data

Results flagged for a closer look

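For 5 genes the contrast between collagen-high and collagen-low cells differed between shAPC and shScr by edgeR's test of the difference. The log2 contrast in shAPC minus that in shScr was -3.10 for CXCL8, -2.48 for CXCL5, -2.40 for VCAM1, -1.67 for CXCL3 and -1.41 for DRAM1. In all 5 the collagen-high cells were below the collagen-low cells in each of the 4 libraries. For CRYAB the log2 contrast differed between days by -1.61 (day 7 minus day 3), with the collagen-high cells above the collagen-low cells in all 4 libraries. Each shRNA, and each day, was represented by 2 libraries in these tests, and the adjusted p-values are given above. Collagen-high cells of shAPC also began at higher collagen shares than those of shScr, as given above.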

How the results depend on the processing

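Over 22 alternatives no gene was called in the opposite direction. The 1651 higher and 1745 lower calls were 463 and 466 with at least 100 UMIs in each of the 8 sums (1876 genes tested), 1087 and 1041 with only cells called G1 (fewer cells), and 477 and 492 with no library block, which adds the spread between libraries to the error. Leaving out 1 library gave 1119 to 1420 higher and 1223 to 1533 lower. DESeq2 gave 1103 and 1179, and total UMIs with no TMM factor 1322 and 1942. The difference between shRNAs, 5 genes, was called for 2 with relative log expression factors, 53 with no filter on low counts and 14 with classes set within UMI quintiles. The difference between days, 1 gene, was called for 2 by DESeq2 and 19 with no filter. The cause of these shifts was not tested. The S or G2M share differed by -18.6 points at 2000 UMIs per cell, by -14.9 with the top 20% as collagen-high, and by -23.1 to -21.2 without 1 library. Of 2786 values of 131 called genes named by rule, 2675 kept direction and call, 111 lost the call (38 with no library block) and 0 reversed. Between shRNAs and days, no paired analysis was possible because each shRNA and day held 1 library. The contrast of the classes was itself paired within libraries, with the library as the replicate block. The collagen-high sums held 2240399 to 3843164 UMIs, where 3 counts are 0.781 to 1.34 CPM, so lower levels were not resolved.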
